A study of Mus musculus with 10 samples.

Results

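The genes of the proteasome and of the axis built around its transcription factor NRF1 were taken from the count table by name. They are the protein-coding genes whose symbol is Psm, a letter from a to g, a number and in some a final letter. The immunoproteasome subunits Psmb8, Psmb9 and Psmb10 were left out, and Nfe2l1, Ddi2, Ngly1 and Pomp were added. This gave 50 of the 38962 genes in the table, 46 by symbol and 4 by name. The rule used names and gene type only, but it was set with earlier results of these data known. The study's own list of genes higher in aged bone already held Nfe2l1. Of the 50 genes, 49 were abundant enough to be tested, among 22088 tested genes, and the untested one was Psmb11.

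Bulk RNA was sequenced from femurs of 5 young and 5 aged male C57BL/6J mice, each mouse giving 1 library. Young mice were 2 months old and came from the Jackson Laboratory, and aged mice were 22 months old and came from the colony of the National Institute of Aging, so that age and supplier cannot be told apart. The labels name no transgene and no treatment. The marrow was flushed out before the bone was pulverized, and in such bulk RNA fewer cells of a type and less RNA per cell cannot be told apart.

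The proteasome is the large protease that degrades proteins tagged with ubiquitin. Its barrel-shaped core, called 20S, is built from rings of alpha and beta subunits, with the cutting sites on the beta subunits, and the cap called 19S recognizes, unfolds and feeds in the substrate. NRF1, the product of Nfe2l1, is a membrane-bound factor of the endoplasmic reticulum that is retrotranslocated, deglycosylated by NGLY1 and clipped by the protease DDI2 before it enters the nucleus, where it raises transcription of proteasome genes when proteasome activity falls. In bone, proteasome activity also limits the amount of the osteoblast factor RUNX2.

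The libraries held 31788232 to 45075335 counts. Levels are given as CPM, the counts scaled to a common library size after adjustment of the libraries by the trimmed mean of M values (TMM), with mean ± SD over the mice, and changes are log2 fold changes of aged over young with the standard error (SE). Skeletal muscle markers took 2.78% to 6.48% of the counts in young and 3.86% to 9.08% in aged libraries. Of the 25 muscle genes listed 24 were tested and 0 were called, beside 7.29% of all tested genes. At an unadjusted p under 0.05 in edgeR's test 10 of them were higher, beside 2948 of all 22088 tested genes. Osteoblast markers took 4.99% to 8.30% of the counts in young and 1.58% to 4.21% in aged libraries. Of these 10 genes 6 were called lower, beside 3.61% of all tested genes. None of the listed markers of muscle and osteoblasts had a count of 0 in any library.

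Nfe2l1 transcripts were 1.98-fold as abundant in aged as in young bone, while the genes encoding the proteasome itself were at nearly the same level at both ages. In edgeR's quasi-likelihood test, with p-values adjusted after Benjamini and Hochberg over all tested genes, 2 of the 49 tested members were higher in aged bone at an adjusted p of at most 0.05, namely Nfe2l1 and Psmd4, and 0 were lower. Over all tested genes 3.68% were called higher and 3.61% lower, so the share of members called higher was near its background. DESeq2 and limma-voom called Nfe2l1 and Psmd4 as well and no further member. An unadjusted p under 0.05 was reached by 7 of the 49 members, 5 of them higher (Nfe2l1, Psmd4, Psmc5, Pomp and Psme2b) and 2 lower (Psmf1 and Psmd5), and by 25.7% of all tested genes.

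Nfe2l1 (ENSMUSG00000038615.17, chr11:96817414-96829968 on GRCm38) was at 184.6, 171.5, 257.1, 129.0 and 199.3 CPM in young mice 1 to 5. In aged mice 1 to 5 it was at 455.5, 319.6, 506.2, 236.5 and 349.0 CPM. Of the aged libraries 4 lay above every young library, and aged 4 fell below the highest young library, so the groups overlapped. The mean level rose from 188.3 ± 46.6 CPM (SD, n = 5) to 373.4 ± 107.9 CPM (SD, n = 5), a 1.98-fold change with a 95% interval of 1.44 to 2.73 (log2 0.99, SE 0.21, edgeR adjusted p = 0.0162). Without young 2 the log2 change was 0.96 and no longer passed (edgeR adjusted p = 0.0532), and without any other single library it did.

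**Figure D1:**
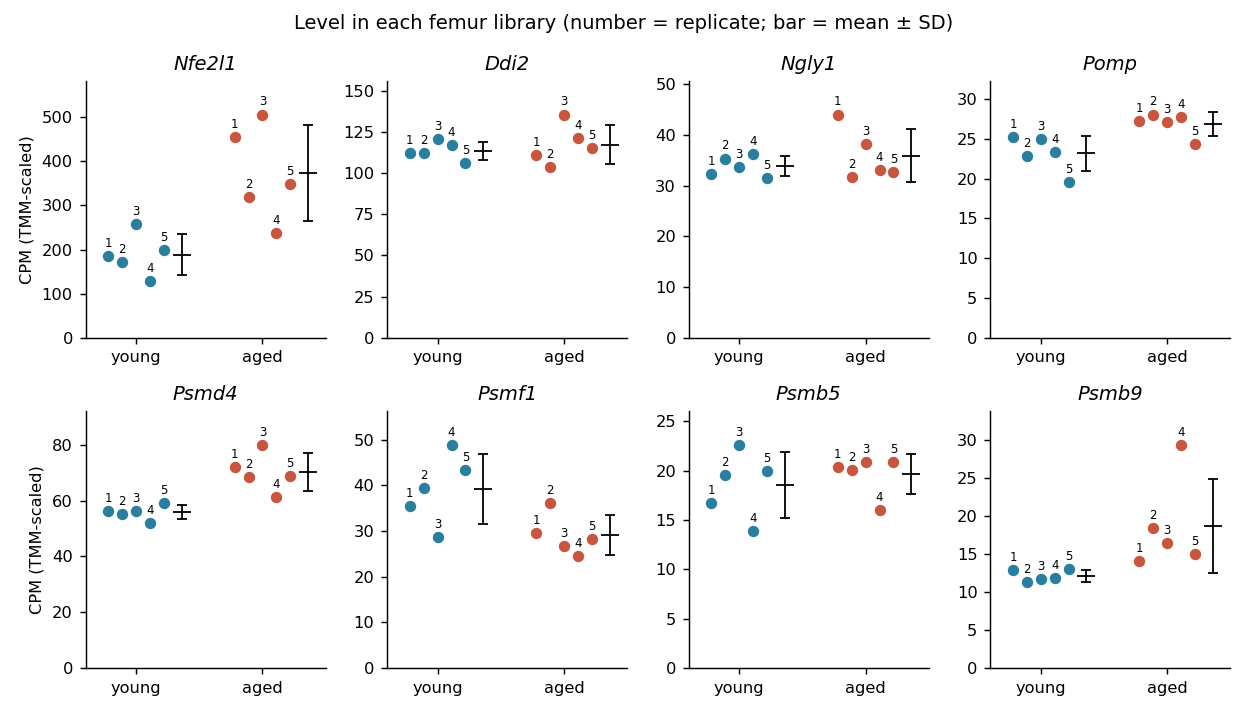
Level in CPM (vertical axes, each from 0) of 8 genes in the 5 young (blue) and 5 aged (red) libraries, with the replicate number above each point and the mean ± SD beside each group. Nfe2l1 is higher in aged bone with 1 library overlapping the young range, Psmd4 is higher without overlap, and Psmb9 is highest in aged 4, at 29.4 CPM.

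Ordered by Nfe2l1, the libraries of each group stood in the order of their muscle markers but for 1 exchanged pair of neighbours. The mean log2 CPM of the muscle markers ran from 7.93 in young 4, the library lowest in Nfe2l1, to 9.54 in young 3, the highest of the young. In aged bone it ran from 8.51 in aged 4, again the lowest in Nfe2l1, to 10.19 in aged 1 and 10.07 in aged 3, the pair highest in Nfe2l1. Pairs of libraries were picked by hand for similar marker levels. Aged 4 at 8.51 had 236.5 CPM of Nfe2l1 and young 1 at 8.64 had 184.6 CPM. Aged 2 at 9.46 had 319.6 CPM and young 3 at 9.54 had 257.1 CPM. The marker levels of aged 1, 3 and 5, at 10.19, 10.07 and 9.65, lay above every young library, so these had no such pair. With the muscle marker level as a covariate the log2 change of Nfe2l1 fell to 0.52 and still passed (edgeR adjusted p = 0.0177). Summed muscle markers were themselves at 45731 ± 18792 CPM in young and 73327 ± 28261 CPM in aged libraries (SD, n = 5 each). Muscle content and age were thus not separate, and the part of muscle in the change of Nfe2l1 was not tested. With the osteoblast marker level as a covariate the log2 change was 0.84 and did not pass (edgeR adjusted p = 0.670), in a fit that called 13 genes in all and in which the marker level, 8.92 to 9.85 in young and 7.40 to 9.04 in aged libraries (mean log2 CPM), nearly separated the ages.

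**Figure D2:**
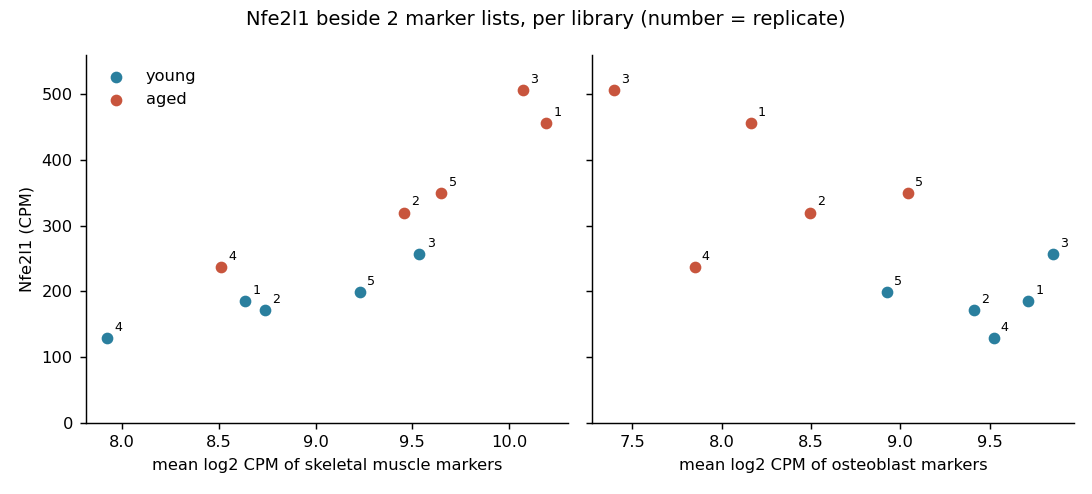
Nfe2l1 in CPM (vertical axis) against the mean log2 CPM of skeletal muscle markers (left) and of osteoblast markers (right) in each library, with replicate numbers. On the left Nfe2l1 is high where the muscle markers are high in both groups, from 129.0 CPM in young 4 to 506.2 CPM in aged 3, and on the right the aged libraries lie to the left of most young ones.

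The related factor NRF2, encoded by Nfe2l2, was at 46.4 ± 6.49 CPM in young against 44.9 ± 5.34 CPM in aged bone (SD, n = 5 each; log2 -0.05, edgeR adjusted p = 0.831). The log2 ratio of Nfe2l1 to Nfe2l2 within a library does not depend on scaling, and it was 2.00 ± 0.52 in young against 3.01 ± 0.54 in aged bone (SD, n = 5 each). The difference of 1.02 had p = 0.0159 in a two-sided exact permutation test, whose smallest possible value here is 0.00794, and p = 0.0794 after adjustment over the 5 ratios computed. Of the aged libraries 4 had a higher ratio than any young library.

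The genes for the processing enzymes of NRF1 showed no such rise. Ddi2, the aspartic protease that clips NRF1, was at 112.1, 112.3, 120.8, 117.0 and 106.3 CPM in young and at 111.2, 103.6, 135.7, 121.3 and 115.2 CPM in aged bone. Its log2 change was 0.05 (SE 0.10, edgeR adjusted p = 0.792), with a fold interval of 0.90 to 1.19. Ngly1, the cytosolic glycanase that strips the sugars from NRF1, went from 33.8 ± 1.96 to 35.9 ± 5.19 CPM (SD, n = 5 each), and its log2 change of 0.09 (SE 0.11, edgeR adjusted p = 0.648) had a fold interval of 0.91 to 1.24. Both intervals lie below the lower bound of the interval of Nfe2l1.

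Psmd4 (ENSMUSG00000005625.15, chr3:95032694-95042614 on GRCm38), the cap subunit that serves as a receptor for ubiquitin chains, was the other member called. It was at 56.3, 55.3, 56.3, 52.1 and 59.3 CPM in young mice 1 to 5. In aged mice 1 to 5 it was at 72.0, 68.6, 80.1, 61.2 and 68.9 CPM. Every aged library lay above every young one, which held for 1 of the 49 members and for 7.8% of all tested genes in either direction. The mean rose from 55.9 ± 2.58 to 70.2 ± 6.82 CPM (SD, n = 5 each), a 1.26-fold change with a 95% interval of 1.10 to 1.44 (log2 0.33, SE 0.09, edgeR adjusted p = 0.0438). The call was close to the threshold and ended with the muscle marker level as a covariate (log2 0.22, edgeR adjusted p = 0.206), with libraries scaled by total counts alone (0.15, 0.516), without a filter on low counts (0.32, 0.0846), and with the osteoblast marker covariate (0.22, 0.795). It also ended, at an edgeR adjusted p of 0.0756, 0.108, 0.0731 and 0.113, without young 1, 2, 3 or 4, and at 0.0645, 0.0575, 0.106 and 0.0733 without aged 1, 2, 3 or 5.

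Promoters of the members were read from RefSeq (GRCm38.p6) as windows of 300 bases, 250 before and 50 after the transcription start, and 42 of the 50 members matched, with 49 windows in all. NRF1 binds antioxidant response elements, so the letters TGACNNNGC and TGAGNNNGC, which cannot overlap each other at the same place on the same strand, and the CCAAT box common to promoters of housekeeping genes were searched on both strands. TGACNNNGC was in 6 of the 49 member windows (12.2%) and in 12.4% of all 32851 windows. The genes holding it were Psmb5, Psmb6, Psmc6, Psmd9, Psmd12 and Psme4. TGAGNNNGC was in 18 member windows (36.7%) against 17.6% of all windows, or in 14 of 44 (31.8%) without the 5 windows of Nfe2l1, and CCAAT was in 17 (34.7%) against 37.4%. The 250 bases before the start are shown for the called members Nfe2l1 and Psmd4 and for the catalytic subunits Psmb5 and Psmb6, which hold TGACNNNGC, in lower case from 5′ to 3′ on the strand of the gene, with all matches of the 3 motifs in capitals (ATTGG is CCAAT on the opposite strand, and GCACACTCA is TGAGNNNGC on the opposite strand, running into the next ATTGG in Nfe2l1).
Nfe2l1, chr11:96829969-96830218, minus strand: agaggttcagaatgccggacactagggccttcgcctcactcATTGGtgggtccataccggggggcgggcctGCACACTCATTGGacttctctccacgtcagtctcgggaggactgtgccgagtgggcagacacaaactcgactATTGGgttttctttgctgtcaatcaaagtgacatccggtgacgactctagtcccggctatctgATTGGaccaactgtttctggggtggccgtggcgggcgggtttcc
Psmd4, chr3:95042615-95042864, minus strand: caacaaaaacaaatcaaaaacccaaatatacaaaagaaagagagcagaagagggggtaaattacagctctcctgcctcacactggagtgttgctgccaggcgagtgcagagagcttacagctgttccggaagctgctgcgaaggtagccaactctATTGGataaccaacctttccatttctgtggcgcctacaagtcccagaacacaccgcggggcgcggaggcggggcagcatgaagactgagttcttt
Psmb5, chr14:54617996-54618245, minus strand: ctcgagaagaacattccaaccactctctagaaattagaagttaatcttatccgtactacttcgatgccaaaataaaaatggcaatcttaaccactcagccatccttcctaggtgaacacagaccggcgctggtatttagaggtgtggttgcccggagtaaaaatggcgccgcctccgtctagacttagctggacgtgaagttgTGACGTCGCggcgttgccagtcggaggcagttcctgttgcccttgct
Psmb6, chr11:70525107-70525356, plus strand: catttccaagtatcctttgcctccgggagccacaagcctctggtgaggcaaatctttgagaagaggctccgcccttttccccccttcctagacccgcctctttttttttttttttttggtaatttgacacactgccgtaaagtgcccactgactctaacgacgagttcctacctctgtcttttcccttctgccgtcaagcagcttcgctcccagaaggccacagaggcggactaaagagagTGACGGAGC
A match is a run of letters and not a measured binding site. Of the 6 genes with TGACNNNGC, 0 were called in aged bone, beside 7.29% of all tested genes. In so small a set 0 is near that share. Of the 14 genes with TGAGNNNGC only Nfe2l1 was called. The member windows were not matched to all windows for base composition.

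The 14 subunits of the 20S core differed little between young and aged bone. None of the 14 passed edgeR's test and 0 had an unadjusted p under 0.05, beside 7.29% and 25.7% of all tested genes. DESeq2 and limma-voom called 0 as well. The 95% interval of the fold change stayed within 1.5-fold in both directions for all 14 core genes, against 43.2% of all tested genes. The shares were not matched for level, which in young bone had a median of 24.1 CPM against 6.66 CPM over all tested genes. The log2 changes of the core genes ran from -0.27 to 0.18 with a median of 0.01, 7 positive and 7 negative. Scaling by total counts alone moved that median to -0.15, close to the shift of all genes to -0.16.

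Among the catalytic beta subunits, Psmb5, which carries the chymotrypsin-like site, was at 16.8, 19.5, 22.6, 13.9 and 19.95 CPM in young and at 20.4, 20.1, 20.8, 16.0 and 20.8 CPM in aged bone. The groups overlapped over almost their whole range (log2 0.08, SE 0.13, edgeR adjusted p = 0.729). Psmb6, with the caspase-like site, had a log2 change of 0.01 (SE 0.13, edgeR adjusted p = 0.959) around 27.8 ± 3.52 CPM (SD, n = 5) in young bone. Psmb7, with the trypsin-like site, went from 17.5 ± 3.01 to 19.8 ± 4.17 CPM (SD, n = 5 each), a log2 change of 0.18 (SE 0.16, edgeR adjusted p = 0.524). The gene span of Psmb7 overlaps Nek6, and whether strand was used in counting is not given in these sources, so reads of the 2 genes may be mixed. The structural beta subunit Psmb4 had a log2 change of -0.10 (SE 0.11, edgeR adjusted p = 0.628), and Psmb1, Psmb2 and Psmb3 lay between -0.02 and 0.04.

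In the alpha ring, which gates the entry to the barrel, Psma1 had the lowest value, with 30.8 ± 4.79 CPM in young against 25.6 ± 4.85 CPM in aged bone (SD, n = 5 each; log2 -0.27, SE 0.14, edgeR adjusted p = 0.260). At the other end Psma7 had a log2 change of 0.10 (SE 0.12, edgeR adjusted p = 0.638). The remaining alpha genes, Psma2 to Psma6, lay between -0.11 and 0.10. Per kilobase of the annotated gene length, core levels in young bone ran from 5.12 CPM per kilobase for Psmb7 to 22.2 for Psmb4, although the products stand in equal number in the barrel. Annotated lengths include rare long isoforms, so this order is uncertain.

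**Figure D3:**
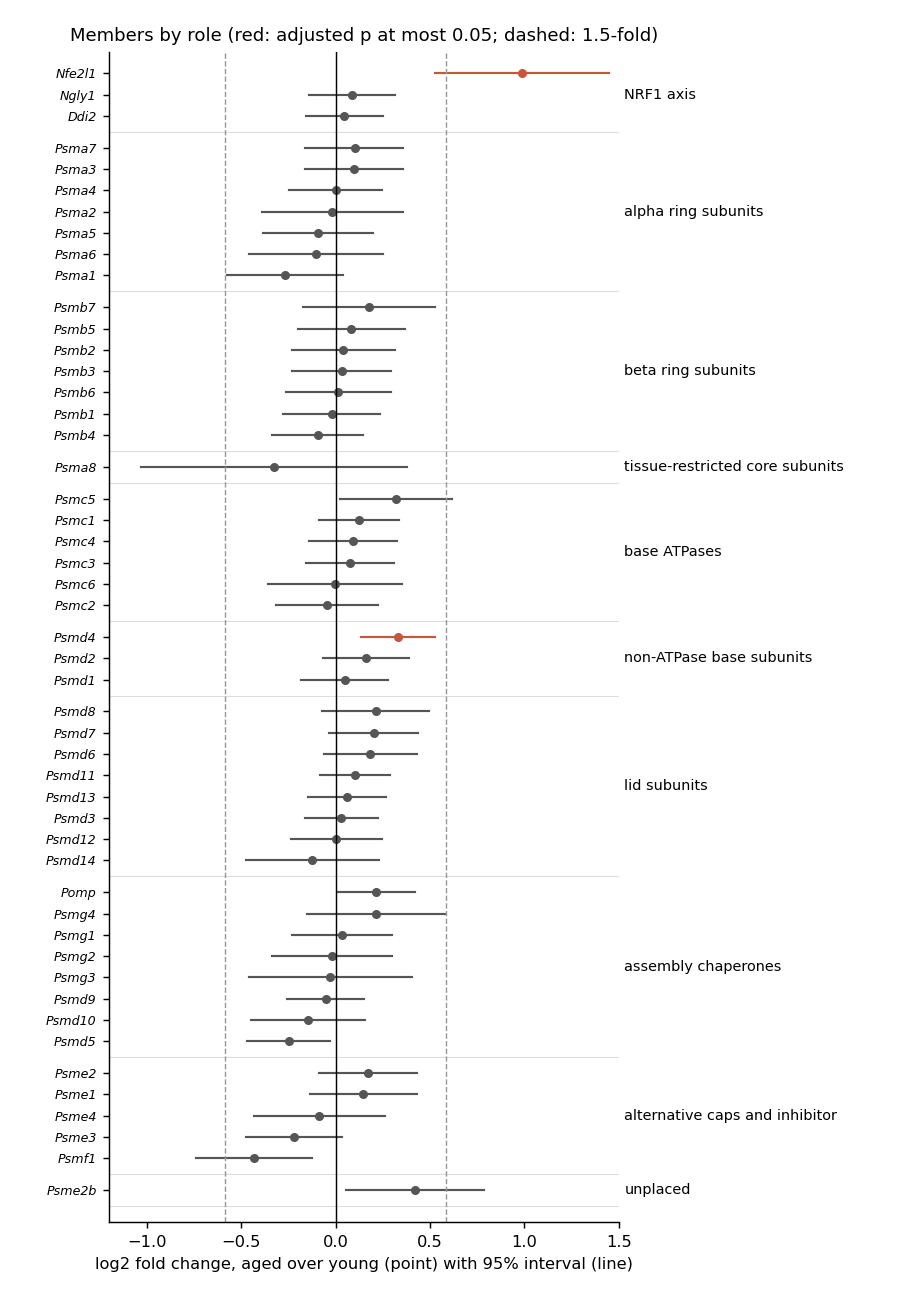
Log2 fold change of aged over young (horizontal axis, points) with its 95% interval (lines) for the 49 tested members, grouped by role. Nfe2l1 at 0.99 and Psmd4 at 0.33 are the members called (red), and most of the other intervals lie between the dashed lines that mark a 1.5-fold change either way.

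Of the 17 subunits of the 19S cap among the members 1, Psmd4, was called, beside 7.29% of all tested genes. Of their log2 changes 14 were positive and 3 negative, with a median of 0.09. The cap subunits Adrm1 and Sem1 are outside the naming rule and not in these counts, and had log2 changes of 0.17 and 0.20. Under total-count scaling 5 of the 17 were positive and the cap median was -0.06, while the median of all tested genes moved from 0.01 to -0.16. With the muscle marker covariate 8 were positive, and the medians of the cap and of all tested genes were -0.001 and -0.01. The intervals of 16 of these genes stayed within 1.5-fold, and the exception was Psmc5. Psmc5, an ATPase of the cap's base that unfolds substrates, went from 21.3 ± 4.28 to 26.6 ± 2.81 CPM (SD, n = 5 each) with a log2 change of 0.32 (SE 0.14, edgeR adjusted p = 0.162), and its young and aged libraries overlapped. Psmc1 had a log2 change of 0.12 (SE 0.10, edgeR adjusted p = 0.453), and the other 4 base ATPases lay between -0.05 and 0.09.

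Psmd2, the scaffold of the base and its most abundant subunit per kilobase in young bone (27.5 CPM per kilobase), went from 111.2 ± 8.08 to 124.3 ± 15.8 CPM (SD, n = 5 each; log2 0.16, SE 0.11, edgeR adjusted p = 0.361). Psmd1, the other scaffold, had a log2 change of 0.05. In the lid, Psmd14, the deubiquitinase that removes ubiquitin chains before degradation, was at 22.8, 29.8, 25.9, 26.0 and 18.7 CPM in young and at 27.5, 27.8, 16.8, 17.4 and 23.2 CPM in aged bone. It showed no separation of the groups (log2 -0.13, SE 0.16, edgeR adjusted p = 0.668). Psmd7, the inactive partner of Psmd14, had a log2 change of 0.20 (SE 0.11, edgeR adjusted p = 0.267) and Psmd6 of 0.18 (SE 0.11, edgeR adjusted p = 0.328). The other 5 lid subunits lay between 0.00 and 0.21.

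The sums took the 31 core and cap subunits among the members, without Adrm1 and Sem1. The summed level was 1035 to 1221 CPM in young bone and 967 to 1261 CPM in aged bone. Its means were 1108 ± 85.6 and 1171 ± 120.1 CPM (SD, n = 5 each). The aged library 4 was the lowest of its group for 26 of the 31 subunits, and aged 2 the highest for 15. In young bone, young 2 was the highest of its group for 18 subunits. The spread between mice of the same age was thus shared by many subunits, and its SD exceeded the distance between the group means. The ratio of summed core to summed cap CPM was 0.463 ± 0.029 in young against 0.422 ± 0.039 in aged bone (SD, n = 5 each), with overlapping ranges of 0.434 to 0.509 and 0.365 to 0.472.

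**Figure D4:**
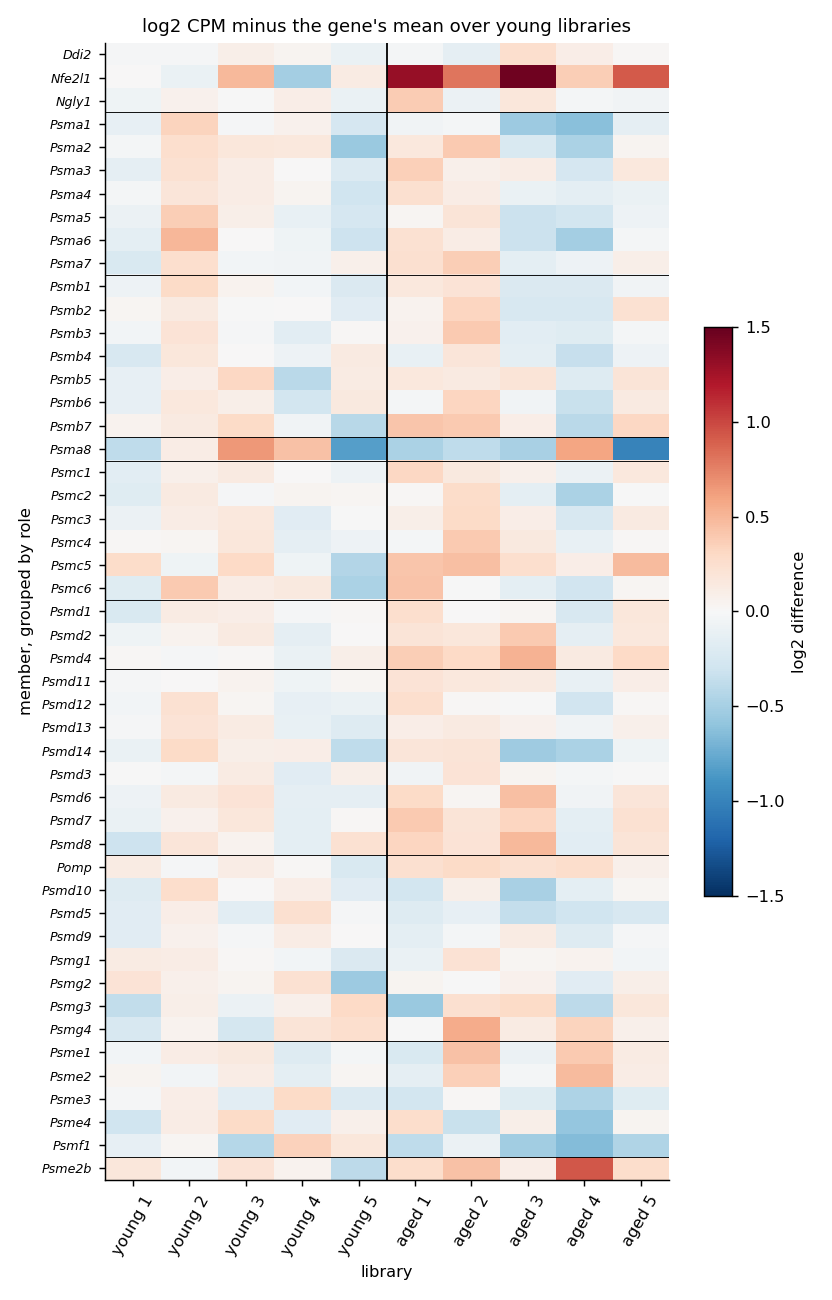
Difference in log2 CPM from the gene's mean over the young libraries (colour) for each tested member (rows, grouped by role) in each library (columns). Nfe2l1 stands out in the aged libraries, and aged 4 is below the young mean for most of the 31 core and cap subunits, with a median difference of -0.22.

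The assembly chaperones, which hold incomplete rings together, included 0 called genes of 8, beside 7.29% of all tested genes. Pomp, the maturation factor that is consumed as the core closes, was at 25.2, 22.8, 24.96, 23.3 and 19.6 CPM in young and at 27.2, 28.1, 27.1, 27.7 and 24.4 CPM in aged bone. All aged libraries but 1 lay above the young ones, and the log2 change of 0.21 (SE 0.10) did not pass after adjustment (edgeR adjusted p = 0.175). Psmd5, a chaperone of the cap's base, went from 26.4 ± 3.25 to 22.2 ± 1.43 CPM (SD, n = 5 each; log2 -0.25, SE 0.10, edgeR adjusted p = 0.147). Psmd9 and Psmd10, which are chaperones of the base as well, had log2 changes of -0.05 and -0.15, and Psmg1 to Psmg4 lay between -0.03 and 0.21 at 2.36 to 6.49 CPM in young bone.

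Among the alternative caps and the inhibitor, 0 of 5 genes were called, beside 7.29% of all tested genes. Psmf1, which encodes the inhibitor PI31, was at 35.5, 39.4, 28.7, 48.9 and 43.4 CPM in young and at 29.7, 36.2, 26.8, 24.6 and 28.2 CPM in aged bone. Its log2 change of -0.43 (SE 0.14) was the most negative of the tested members and missed the threshold (edgeR adjusted p = 0.0818). It passed without young 3 (edgeR adjusted p = 0.0384) or without aged 2 (edgeR adjusted p = 0.0464). It was further from passing without young 4 (log2 -0.34, edgeR adjusted p = 0.217). The same held with the muscle marker covariate (-0.33, 0.281) and the osteoblast marker covariate (-0.44, 0.734). Psme3, the nuclear activator that works without ubiquitin, went from 137.6 ± 19.6 to 118.3 ± 13.9 CPM (SD, n = 5 each; log2 -0.22, SE 0.12, edgeR adjusted p = 0.263).

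Psme4, the activator known for the degradation of acetylated histones, had a log2 change of -0.09 (SE 0.16, edgeR adjusted p = 0.771) from 184.0 ± 29.9 CPM (SD, n = 5) in young bone. The interferon-inducible activator subunits Psme1 and Psme2 had log2 changes of 0.15 (SE 0.13, edgeR adjusted p = 0.512) and 0.17 (SE 0.12, edgeR adjusted p = 0.393). The single-exon gene Psme2b, whose symbol marks it as a copy of Psme2, had a log2 change of 0.42 (SE 0.17, edgeR adjusted p = 0.142) at 5.65 ± 0.88 CPM (SD, n = 5) in young bone. The span of Psme2b overlaps 9930111J21Rik1 and Gm12185, with 4472 and 539 counts over all libraries beside 2609 for Psme2b. Its reads may be shared with these genes or with Psme2, so its value is uncertain. With the muscle marker covariate Psme2b was called.

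The tissue-restricted core subunits were near the floor of detection. Psma8, known from testis, had 22 to 76 counts per library and a log2 change of -0.33 (SE 0.33, edgeR adjusted p = 0.558). Psmb11, known from the thymus, had 0 to 4 counts per library and was not tested.

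Across the 49 tested members the median log2 change was 0.04, with an interquartile range of -0.05 to 0.15 and an SD of 0.21. Over all tested genes the median was 0.01, the interquartile range -0.22 to 0.24 and the SD 0.49. For 44 of the members (89.8%) the 95% interval of the fold change stayed within 1.5-fold either way, against 43.2% of all genes, and the members had a median SE of 0.12 against 0.18. The members were also more abundant, at a median of 28.4 CPM in young bone against 6.66 CPM over all tested genes. The shares were not matched for level. With scaling by total counts alone the median of the members moved to -0.12 and that of all tested genes to -0.16.

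Genes around the proteasome were described from lists of partners and regulators. Of 45 tested genes in these lists, 2 were higher and 1 was lower, beside 7.29% called in either direction over all tested genes, and 13 of the 45 had an unadjusted p under 0.05, beside 25.7% of all tested genes. The immunoproteasome subunits Psmb8, Psmb9 and Psmb10 replace the catalytic subunits of the core under interferon and in blood cells, and 1 of the 3 was called. Psmb9 was at 12.9, 11.3, 11.7, 11.9 and 13.0 CPM in young and at 14.1, 18.4, 16.5, 29.4 and 15.01 CPM in aged bone. Every aged library was above every young one. Such a separation, in either direction, was seen for 4 of the 45 tested genes in these lists and for 7.8% of all tested genes. Psmb9 had a log2 change of 0.62 (SE 0.18, edgeR adjusted p = 0.0471). The call ended without any 1 of the young libraries and without aged 2 or aged 3 (edgeR adjusted p from 0.0631 to 0.119), and without aged 4 it held with a log2 change of 0.40. It also ended with limma-voom (adjusted p = 0.0662), and with edgeR under upper-quartile scaling (adjusted p = 0.0536), total counts alone (0.190), a minimum count of 50 (0.0515) and the osteoblast marker covariate (0.855). The call held with DESeq2 (adjusted p = 0.0166). It also held with edgeR without a filter on low counts (adjusted p = 0.0278) and with the muscle marker covariate (log2 0.83, adjusted p = 0.00615). Psmb8 and Psmb10 had log2 changes of 0.51 (SE 0.20, edgeR adjusted p = 0.136) and 0.43 (SE 0.17, edgeR adjusted p = 0.132).

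The log2 ratio of each immunoproteasome subunit to the constitutive subunit it replaces was compared within libraries. For Psmb9 to Psmb6 it was -1.19 ± 0.22 in young against -0.62 ± 0.60 in aged bone (SD, n = 5 each), a difference of 0.56 (two-sided exact permutation p = 0.0397, adjusted over the 5 ratios p = 0.0992). For Psmb8 to Psmb5 the difference was 0.35 (two-sided exact permutation p = 0.349, adjusted p = 0.437), and for Psmb10 to Psmb7 it was 0.27 (two-sided exact permutation p = 0.524, adjusted p = 0.524). In all 3 ratios aged 4 was the highest library, at 0.47, 0.43 and 1.19 for Psmb8, Psmb9 and Psmb10. Without aged 4 the difference was 0.30 for Psmb9 to Psmb6 and -0.01 for Psmb10 to Psmb7. The ratio of Psme1 to Psme3 differed by 0.34 (two-sided exact permutation p = 0.127, adjusted p = 0.212).

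**Figure D5:**
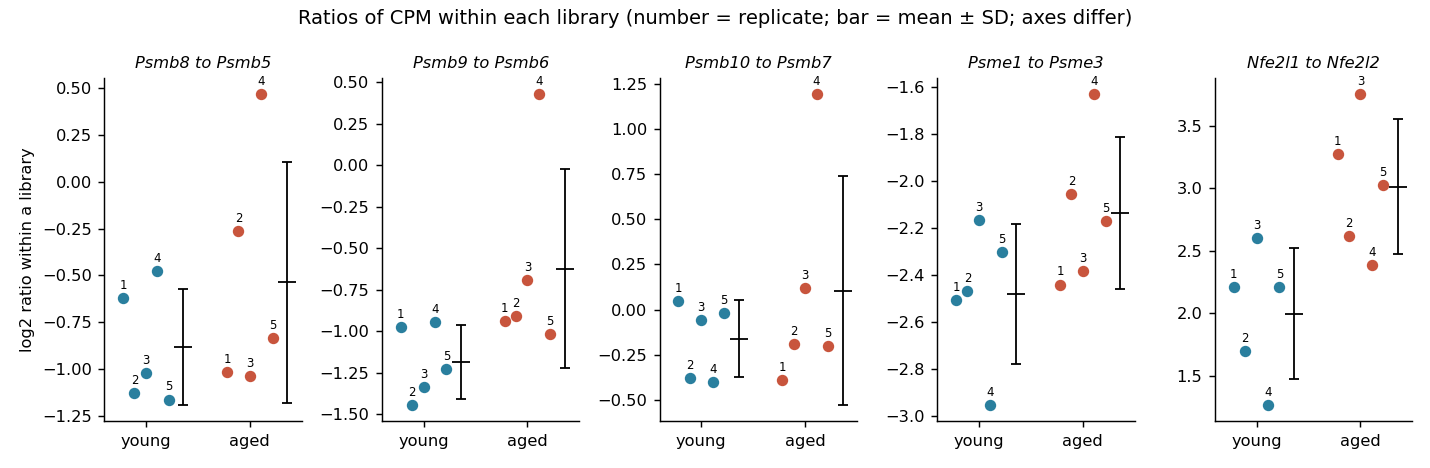
Log2 ratio of the CPM of 2 genes within each library (vertical axes, which differ between panels) for the 5 ratios tested, with replicate numbers and the mean ± SD beside each group. Aged 4 is the highest library in the 3 immunoproteasome panels, at 0.47, 0.43 and 1.19, and the ratio of Nfe2l1 to Nfe2l2 is higher in most aged libraries.

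Among the 12 genes for the exit of NRF1 from the endoplasmic reticulum and its turnover, Fbxw7, a substrate receptor of a ubiquitin ligase, was higher, from 36.9 ± 3.96 to 48.5 ± 5.40 CPM (SD, n = 5 each; log2 0.39, SE 0.11, edgeR adjusted p = 0.0405). It passed without young 3 or aged 2 but missed without any other single library (edgeR adjusted p from 0.0579 to 0.110). The call of Fbxw7 also ended with the muscle marker covariate (edgeR adjusted p = 0.100), total counts alone (0.310) and the osteoblast marker covariate (0.752). Btrc, a substrate receptor of a related ubiquitin ligase, went the other way, from 90.5 ± 10.9 to 70.1 ± 12.2 CPM (SD, n = 5 each; log2 -0.37, SE 0.13), and did not pass (edgeR adjusted p = 0.101). Every young library lay above every aged one for Btrc. The groups did not overlap for 2 of these 12 genes, Btrc and Sel1l, beside 7.8% of all tested genes. Vcp, the segregase that pulls NRF1 out of the membrane, had a log2 change of 0.17 (edgeR adjusted p = 0.257). Among the 9 factors of the NRF family and their small Maf partners, Bach2, a repressor known from B cells, was lower, from 105.4 ± 12.4 to 54.4 ± 7.33 CPM (SD, n = 5 each; log2 -0.95, SE 0.12, edgeR adjusted p = 0.000558), and it stayed lower without each single library.

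None of the 15 other proteasome partners was called, beside 7.29% of all tested genes, and the smallest p-values were those of Ubqln4 and Adrm1. Ubqln4, a shuttle for ubiquitinated proteins, had a log2 change of 0.31 (SE 0.12, edgeR adjusted p = 0.121), and the ubiquitin receptor Adrm1 one of 0.17 (SE 0.10, edgeR adjusted p = 0.295). Of the 6 genes for ubiquitin and its activating enzymes 0 were called, near the 7.29% of all tested genes. Rps27a, which encodes ubiquitin fused to a ribosomal protein, had a log2 change of -0.31 (SE 0.13, edgeR adjusted p = 0.143).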

How the data were processed

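RNA of 10 flushed mouse femurs was sequenced. The deposited table holds raw read counts by gene, made by the authors with Cutadapt, STAR (GRCm38.p6) and featureCounts from libraries prepared with ribosomal RNA depletion and poly-A selection. The annotation release and strand setting are not given in these sources, and the labels name a human build although the identifiers are mouse. Genes passing edgeR's filter (minimum count 10, minimum total 15) were tested in R 4.3.3 with edgeR 4.0.16 after TMM scaling, by a robust quasi-likelihood fit with Benjamini-Hochberg adjustment over 22088 genes and a threshold of 0.05. The step was tested on simulated counts. Alternatives were DESeq2 1.42.0, limma-voom (limma 3.58.1), other scalings and filters, marker covariates (mean log2 CPM, prior count 2), a replicate block and leaving out each library. Ratios were compared by exact permutation with Python 3.11.15. Figures used matplotlib 3.10.9. The members and lists were chosen with earlier results of these data known. Named are the NRF1 axis, Pomp, catalytic and accessory subunits, called genes and the 2 smallest p-values of each list. Genes beyond that rule, such as Vcp, Btrc, Nfe2l2, Psmb8 and Psmb10, were chosen after their values were seen. With 5 libraries per group, of 31788232 to 45075335 counts, the members had a median SE of 0.12 (log2). A gene that the rule names is not reported here.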

Additional observations from a re-analysis of the deposited data

Results flagged for a closer look

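In 7 of the 76 groups of 5 libraries checked, 1 library stood apart from the other 4 by Dixon's criterion, and chance gives about 1 in 20 such groups. Aged 4 accounted for 5 of them. Its summed level of core and cap subunits was 967 CPM, with the next aged library at 1182 CPM, and its Psmb5 level was 16.0 CPM, with the next at 20.1 CPM. It was the highest aged library for Psmb9 at 29.4 CPM (next 18.4 CPM), for the log2 ratio of Psmb9 to Psmb6 at 0.43 (next -0.69), and for Psma8 at 1.76 CPM (next 0.895 CPM). Aged 4 also had the largest share of counts from the noncoding RNA Gm26917, 31% where the other libraries had 14.5% to 29.8%, and the part of this share in the values above was not tested. Pomp was lowest of the aged libraries in aged 5, at 24.4 CPM (next 27.1 CPM). Bach2 was lowest of the young libraries in young 5, at 83.4 CPM (next 108.6 CPM), which still lay above every aged library.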

How the results depend on the processing

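The change of Nfe2l1 kept its direction under each alternative run and lost its call with the osteoblast covariate (log2 0.84) and without young 2, with 0.85 to 1.13 over the libraries left out singly. The count of members called higher was 1 with total counts alone, without the filter on low counts and with the replicate block, 0 with the osteoblast covariate, and 0 to 2 without single libraries, while members called lower numbered 0 to 1. Pathway genes called higher numbered 1 with limma-voom, upper-quartile scaling, a minimum count of 50 and the replicate block, 0 with total counts alone and the osteoblast covariate, and 0 to 2 without single libraries, and those called lower numbered 0 with the osteoblast covariate and 1 to 2 without single libraries. The replicate numbers did not pair the libraries, since the correlations of same-numbered deviations were -0.15, 0.04, 0.17, 0.16 and -0.08, 1 of 5 numbers matched best with itself, and the block gave Nfe2l1 a log2 change of 0.97 and Psmd4 an adjusted p of 0.0726 (edgeR). The median of members was -0.12 with total counts alone and 0.17 with the osteoblast covariate, and the log2 change of the summed core and cap level was -0.084 with total counts alone.

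Of the 49 tested members, 18 had the opposite sign with total counts alone, 12 with the muscle covariate and 13 with the osteoblast covariate, and neither called member was among them. For the members described singly the values were as follows. With total counts alone, which moved the median of all genes to -0.16, Ddi2 was at -0.13, Ngly1 at -0.10, Psma7 at -0.059, Psmb5 at -0.072, Psmb6 at -0.14, Psmc1 at -0.043 and Psmd2 at -0.009. With the muscle covariate Psmb5 was at -0.14, Psmb6 at -0.14, Psmb7 at -0.02 and Psmd2 at -0.001. With the osteoblast covariate Ddi2 was at -0.069, Ngly1 at -0.025, Psma1 at 0.10 and Psmd14 at 0.36. Without single libraries Ddi2 ranged from -0.010 to 0.088, Psmb5 from -0.004 to 0.165, Psmb6 from -0.072 to 0.092 and Psme4 from -0.183 to 0.019. The ratio difference of Psmb9 to Psmb6 ranged from 0.30 to 0.66 and that of Psmb10 to Psmb7 from -0.006 to 0.390. The cause was not tested for any of these. With 5 mice per group the SE of a member's log2 change was 0.09 to 0.33, which limits the changes that could be called.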

Other observations

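The 50 members lie on 16 chromosomes, 10 of them on chromosome 11 and 7 on chromosome 14. Psmb5 and Psmb11 are 3410 bases apart on chromosome 14, and Psme1 and Psme2 are 5911 bases apart there.  The spans of 20 members overlap another gene of the table, among them Psmc3 with Slc39a13 and Psmd13 with Sirt3, and those of Nfe2l1, Psmd4 and Psmf1 overlap none.

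The pseudogenes Psmb7-ps2 and Psmb6-ps had 0 to 3 counts per library. Among the marker lists of blood cells, 0 of 10 neutrophil markers and 0 of 9 tested red cell precursor markers were called, and of 7 tested plasma cell markers 2 were higher and 1 was lower. Over all tested genes 7.29% were called in either direction. Neutrophil markers took 0.154% to 0.306% of the counts in young and 0.118% to 0.545% in aged libraries, and red cell precursor markers 0.390% to 1.14% and 0.325% to 1.13%.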
